A study of Homo sapiens with 204 samples.

Results

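TFEB, TFE3 and MITF, the MiT/TFE transcription factors, were followed together with 7 genes of the lysosome and of autophagy, SQSTM1, NPC1, NPC2, CTSB, CTSD, PSAP and LAMP1, through the knockdown of ribosomal proteins in A549 cells. The 10 genes were taken by name, with their Ensembl identifiers matched to symbols, out of 41379 identifiers in the RNA-seq table and 19217 in the Ribo-seq table. Each of the 10 had a row in both tables and passed the filter on low counts in both, which asked for at least 1 CPM, the counts-per-million scale, in at least 11 libraries.

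Lysosomes are acidic compartments in which proteases, lipid-handling proteins and other hydrolases break down cargo that arrives by endocytosis or autophagy. TFEB, TFE3 and MITF bind E-box motifs in the promoters of many lysosomal and autophagy genes, the set often called the CLEAR network. When nutrients are plentiful, mTORC1 on the lysosomal surface phosphorylates these factors and holds them in the cytoplasm, so their activity is set to a large part by where the protein is, which neither assay used here reads.

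A549 is a human lung adenocarcinoma cell line. Single ribosomal proteins were depleted with siRNA at 40 nM for 24 h, and cells given non-targeting siRNA served as controls; the carrier was RNAiMAX in both. Each lysate, made after a short cycloheximide treatment that holds ribosomes on mRNA, was divided between Ribo-seq, which counts ribosome-protected fragments over coding sequences, and RNA-seq of total RNA, counted over exons. Per assay, the libraries comprised 48 from knockdowns of 44 large-subunit proteins, 43 from knockdowns of 31 small-subunit proteins and 11 controls. Of the 75 targets, 16 had 2 libraries and 59 had 1. The series' text calls the repeats biological replicates without saying that they came from separate cultures, so p-values here measure the spread between libraries, which may in part be technical.

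Promoter windows of 300 bases, 250 before and 50 after each annotated start, were available for 8 of the 10 genes in RefSeq on GRCh38.p14, in 15 windows. There was none for PSAP and CTSB, whose promoters were therefore not searched. They were searched on both strands for the E-box CACGTG, for TCACGTGA, the palindromic core of the CLEAR element that contains the E-box, and for TGACNNNGC, the core of the antioxidant response element bound by NRF2. The E-box was found in 2 of the 15 windows, 1 of CTSD and 1 of LAMP1, against 7.26% of 35116 windows of all genes. The CLEAR core was found in the LAMP1 window only, against 0.98% of all windows, and the antioxidant response element core in windows of CTSD, LAMP1 and NPC2, against 13.3%. The windows of LAMP1 (chr13:113296989-113297288, plus strand) and CTSD (chr11:1763878-1764177, minus strand) are printed because they hold all E-boxes found, and the most upstream of the 3 TFEB windows (chr6:41735559-41735858, minus strand) because TFEB moved most among the 10 genes. Capitals mark a match to any of the 3 motifs, and none was found in the TFEB windows.
LAMP1: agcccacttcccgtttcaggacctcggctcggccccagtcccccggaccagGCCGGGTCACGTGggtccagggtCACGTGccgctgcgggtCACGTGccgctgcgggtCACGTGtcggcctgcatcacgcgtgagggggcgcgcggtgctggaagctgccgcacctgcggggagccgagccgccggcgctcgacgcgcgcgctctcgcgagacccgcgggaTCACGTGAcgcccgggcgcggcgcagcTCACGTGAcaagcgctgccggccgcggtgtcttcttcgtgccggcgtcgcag
CTSD: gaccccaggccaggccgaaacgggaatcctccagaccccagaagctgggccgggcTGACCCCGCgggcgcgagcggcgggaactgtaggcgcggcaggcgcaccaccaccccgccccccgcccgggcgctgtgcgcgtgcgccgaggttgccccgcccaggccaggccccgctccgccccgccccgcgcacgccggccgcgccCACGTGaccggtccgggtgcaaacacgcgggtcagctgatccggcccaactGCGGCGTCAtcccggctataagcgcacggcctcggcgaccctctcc
TFEB: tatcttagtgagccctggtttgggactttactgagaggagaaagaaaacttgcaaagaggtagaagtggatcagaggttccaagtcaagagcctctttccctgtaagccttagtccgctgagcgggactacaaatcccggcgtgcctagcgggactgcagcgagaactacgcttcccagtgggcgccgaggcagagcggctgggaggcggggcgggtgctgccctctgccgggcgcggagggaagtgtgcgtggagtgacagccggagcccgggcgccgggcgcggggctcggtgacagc
Counted from 1 at the annotated start, with -1 just before it, the 6 E-boxes of LAMP1 began at -192, -176, -159, -142, -28 and -1, and the CLEAR cores at -29 and -2 enclose the last pair. The antioxidant response element core of LAMP1, on the other strand at -199, overlaps its E-box at -192. CTSD had 1 E-box at -47 and 2 antioxidant response element cores at -195 and 5. A match to these letters describes the sequence and does not show that a factor binds there.

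RNA-seq libraries held 18.8 to 63.6 M counts (M, mega; median 27.8 M) and Ribo-seq libraries 7.77 to 57.2 M (median 23.8 M). Titles fall into a numbered set of 38 libraries per assay, with 6 controls and all 16 targets that have 2 libraries, and an unnumbered set of 64 with 5 controls, and each fit carried a term for this title set. The targeted mRNA lay below all 11 controls in 91 of 91 RNA-seq libraries, at a median of 4.24% of the control level. Its footprints did so in 85 of 88 Ribo-seq libraries, at a median of 6.22% and at most 49.3%, for RPL7. For 2 targets there was no Ribo-seq value to check. Epithelial keratins were abundant, with KRT7 at a median of 2034 CPM in knockdown and 1895 CPM in control libraries. EPCAM was at a median of 1.03 CPM in knockdown and 1.01 CPM in control libraries, low for an epithelial line. Of the markers of blood, fibroblast and endothelial cells, PTPRC, LYZ, COL1A2, DCN and CDH5 had medians of 0 in knockdown and control libraries, and CSF1R, PDGFRB, PECAM1 and VWF medians of at most 0.141 CPM. COL1A1 stood apart, at a median of 18.5 CPM in knockdown and 19.7 CPM in control libraries, and CD14 was at 1.52 and 1.32 CPM.

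The columns of both tables also fall into 3 runs, in each of which the order of names starts anew; the headers do not say what a run stands for. Run 1 holds 15 of the 16 targets with 2 libraries and 4 numbered controls, and run 2 holds 44 targets with 1 library and the 5 unnumbered controls. Run 3 holds 15 targets with 1 library and the 2 other numbered controls, 21_1 and 21_2. The 2 libraries of RPS16 are in runs 2 and 3. Title set and run therefore cross, and shifts with the run are given beside many of the results they touch.

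Among the 10 genes, only TFEB was called as different between knockdown and control cells as a whole. TFEB RNA was at 2.09 to 12.01 CPM in the 91 knockdown libraries (median 5.46), against 2.196 to 5.41 CPM in the 11 controls (median 3.73). TFEB footprints were at 0 to 10.3 CPM in knockdown libraries (median 4.31), against 1.38 to 5.67 CPM in controls (median 2.97). The ranges overlapped in both assays, and most knockdown libraries lay in the upper part of the control range or above it. TFEB RNA rose by 0.75 ± 0.16 on the log2 scale (SE; 95% interval 0.45 to 1.06) in edgeR's quasi-likelihood test, a 1.68-fold difference with an adjusted p of 9.28e-05. Its footprints rose by 0.77 ± 0.26 (adjusted p = 0.0186, edgeR).

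Within the numbered title set, TFEB RNA was higher in knockdowns by 0.81 ± 0.22 (adjusted p = 0.0115, edgeR), and within the unnumbered set by 0.70 ± 0.23 (adjusted p = 0.0303, edgeR). For TFEB footprints the difference was 0.95 ± 0.21 in the numbered set (adjusted p = 0.00132, edgeR) and 0.59 ± 0.44 in the unnumbered set, where it was not called (adjusted p = 0.491, edgeR). The call on TFEB footprints was also lost when the title set was left out of the fit (0.69, adjusted p = 0.0578, edgeR) and with the replicate number of the titles as a block (0.70, adjusted p = 0.0618, edgeR). Titles of the 2 controls of run 3 carry no replicate number, so this block takes them out of the comparison. TFEB was a low-count gene here, with 44 to 453 RNA-seq counts per knockdown library, and its footprint values carry the counting error that goes with that. A single knockdown library had no TFEB footprint, and its depth allows up to 0.176 CPM at a count of 0. In bulk libraries, fewer cells expressing a gene and less RNA per cell cannot be told apart.

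The other 9 genes were not called in either direction. Their RNA differences from control ran from -0.15 ± 0.09 for SQSTM1, a receptor that delivers ubiquitinated cargo to autophagosomes, to 0.24 ± 0.15 for MITF, whose 95% interval was -0.05 to 0.53. SQSTM1 RNA was called lower with the replicate number of the titles as a block (-0.26, adjusted p = 0.0310, edgeR) and when the column run replaced the title set in the fit (-0.20, adjusted p = 0.0397, edgeR). The block again leaves out the 2 controls of run 3. Their footprint differences ran from -0.18 ± 0.11 for NPC1, which exports cholesterol from the lysosome, to 0.16 ± 0.12 for MITF. With edgeR, 1 of 10 genes was thus higher and 0 lower in RNA-seq, where 13.4% of all genes tested were called higher and 17.2% lower. In Ribo-seq it was again 1 and 0, beside 13.2% and 13.5% of all genes. No gene was lower at an unadjusted p under 0.05, nor by DESeq2, in either assay. The median log2 difference of the 10 genes was 0.06 in RNA-seq, against -0.03 over all genes, and 0.09 in Ribo-seq, against -0.00.

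**Figure D1:**
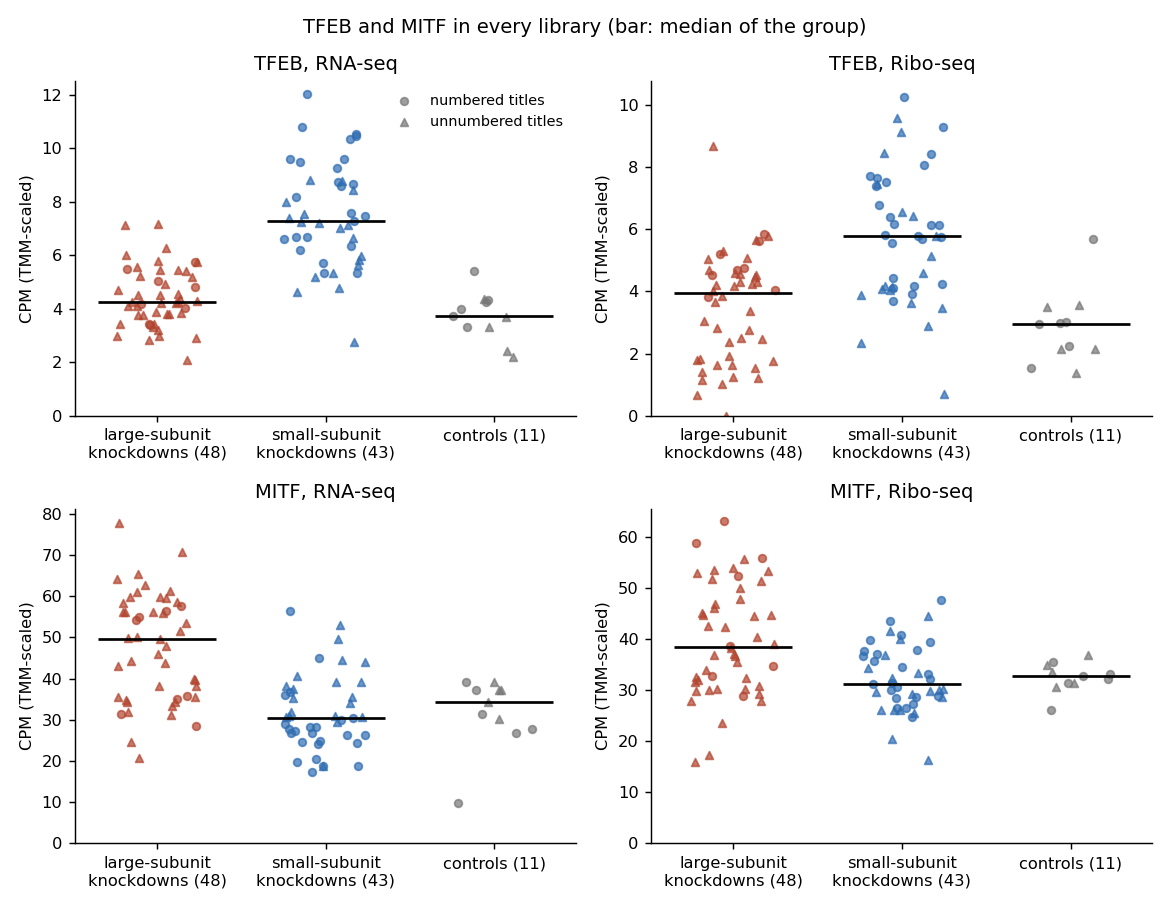
TFEB (top) and MITF (bottom) in each RNA-seq (left) and Ribo-seq (right) library, as TMM-scaled CPM on a linear axis from 0. Points are libraries of large-subunit knockdowns, small-subunit knockdowns and controls, marker shapes show the title set and bars the group median. Over both title sets together, TFEB RNA had a median of 4.25 CPM in large-subunit and 7.29 CPM in small-subunit knockdowns, and MITF RNA 49.6 and 30.5 CPM.

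Most of the 10 genes differed on average with the subunit of the depleted protein. TFEB was lower after depletion of large-subunit than of small-subunit proteins, while MITF, SQSTM1, NPC1, CTSB and PSAP were higher after large-subunit depletion in both assays, TFE3 in RNA-seq and NPC2 in Ribo-seq. In RNA-seq this made 6 genes higher and 1 lower of 10, where 15.2% of all genes tested were called higher and 16.4% lower. In Ribo-seq it made 6 higher and 1 lower, beside 10.9% and 11.2% of all genes. The median log2 difference of the 10 genes, large minus small, was 0.18 in RNA-seq, against -0.01 over all genes, and 0.22 in Ribo-seq, against -0.01. CTSD and LAMP1 were called in neither assay. In the numbered set alone 1 of the 10 genes was higher in RNA-seq, beside 1085 of 15526 genes, and 1 in Ribo-seq, beside 978 of 12793. Without the title set term 2 were higher in RNA-seq, beside 3448 of 15526 genes. Group ranges and medians below pool both title sets unless a set is named, and 40 of 48 large- but 19 of 43 small-subunit libraries are unnumbered. The log2 differences carry the title set term, so gaps between pooled medians can differ from them.

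TFEB RNA was at 2.09 to 7.15 CPM in the 48 large-subunit knockdown libraries (median 4.25), against 2.77 to 12.01 CPM in the 43 small-subunit ones (median 7.29). The groups overlapped, and the highest values were all in small-subunit knockdowns. In 20 of 48 large-subunit libraries TFEB RNA exceeded every control of the same title set, and in 40 of 43 small-subunit libraries it did so; over all genes and knockdown libraries, 22.6% of values lay above the controls. TFEB RNA was lower by 0.65 on the log2 scale in large-subunit knockdowns (log2 difference -0.65 ± 0.08, adjusted p = 6.76e-10, edgeR). The same difference was -0.87 ± 0.14 within the numbered and -0.56 ± 0.10 within the unnumbered title set. TFEB footprints, at medians of 3.94 CPM in large-subunit and 5.78 CPM in small-subunit knockdowns, differed by -0.57 ± 0.16 (adjusted p = 0.00548, edgeR). Within a title set the footprint difference of TFEB kept its sign and was not called, with -0.37 ± 0.17 in the numbered set (adjusted p = 0.136, edgeR) and -0.65 ± 0.23 in the unnumbered set (adjusted p = 0.0560, edgeR).

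MITF, known as the regulator of melanocyte identity and expressed in other cells too, ran the other way. MITF RNA was at 20.8 to 77.8 CPM in large-subunit knockdowns (median 49.6), against 17.3 to 56.5 CPM in small-subunit knockdowns (median 30.5), while controls were at 9.71 to 39.2 CPM. These medians pool the title sets, and control means of MITF RNA were 23.9 CPM in run 1 and 35.6 CPM in run 2. The groups overlapped, with 32 of 48 large-subunit libraries and 8 of 43 small-subunit libraries above every control of their title set, where 22.6% of values of all genes lay above. MITF RNA was higher by 0.48 ± 0.09 in large-subunit knockdowns (adjusted p = 1.14e-05, edgeR) and its footprints by 0.35 ± 0.08 (adjusted p = 0.000344, edgeR). The RNA difference was 0.66 in the numbered and 0.40 in the unnumbered set, and the footprint difference 0.45 and 0.34, each past the threshold.

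TFE3, a factor with functions that overlap those of TFEB, differed little. Its RNA had medians of 207 CPM in large-subunit and 186 CPM in small-subunit knockdowns of the numbered set, and of 146 and 127 CPM in the unnumbered set. The difference was 0.16 ± 0.05 (adjusted p = 0.00917, edgeR). It was not called with library totals alone (0.11, adjusted p = 0.0610, edgeR), and it came to -0.06 when the title set was left out of the fit; the numbered set holds 8 large- and 24 small-subunit libraries. TFE3 footprints differed by -0.05 ± 0.06 (95% interval -0.17 to 0.07), which was not called.

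SQSTM1 RNA had medians of 2687 CPM in large-subunit and 2173 CPM in small-subunit knockdowns of the numbered set, and of 1799 and 1357 CPM in the unnumbered set. Over all libraries the groups overlapped widely, at 1287 to 3005 CPM in large-subunit knockdowns and 790.4 to 2713 CPM in small-subunit ones. SQSTM1 was higher in large-subunit knockdowns by 0.34 ± 0.06 in RNA-seq (adjusted p = 6.49e-06, edgeR) and by 0.33 ± 0.06 in Ribo-seq (adjusted p = 5.26e-05, edgeR). Both calls were lost when the title set was left out of the fit, with 0.10 in RNA-seq (adjusted p = 0.265, edgeR) and 0.15 in Ribo-seq (adjusted p = 0.0812, edgeR). They were also lost within the numbered set, with 0.26 (adjusted p = 0.103, edgeR) and 0.25 (adjusted p = 0.157, edgeR). SQSTM1 RNA lay above all controls of its title set in 5 of 48 large-subunit and 0 of 43 small-subunit libraries, where 22.6% of values of all genes lay above. It lay below all of them in 6 of 48 and 15 of 43, where 23.3% of values of all genes lay below. The numbered controls join run 1, at 2551 to 3657 CPM, with run 3, at 1537 and 1561 CPM. A run 1 library below every run 1 control can therefore count as within. Relative to controls of the same run, 26 of 44 large-subunit and 30 of 31 small-subunit targets were below control.

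NPC1 and NPC2 work in sequence: NPC2 binds cholesterol in the lysosomal lumen and hands it to NPC1 in the membrane. NPC1 footprints were at 311 to 779 CPM in large-subunit knockdowns (median 539.6), against 215 to 690 CPM in small-subunit knockdowns (median 354), with controls at 343 to 626 CPM. These medians pool the title sets, and control means were 365 CPM in run 1 and 560 CPM in run 2. NPC1 footprints lay below every control of the title set in 14 of 48 large-subunit and 31 of 43 small-subunit libraries, where 24.1% of values of all genes lay below. NPC1 was higher in large-subunit knockdowns by 0.39 ± 0.07 in Ribo-seq (adjusted p = 1.17e-05, edgeR) and by 0.34 ± 0.07 in RNA-seq (adjusted p = 3.85e-05, edgeR). Within the numbered set alone, the NPC1 difference was 0.26 ± 0.11 in RNA-seq and 0.23 ± 0.14 in Ribo-seq, and neither was called. NPC2 was called in Ribo-seq only, with 0.19 ± 0.05 (adjusted p = 0.00511, edgeR); the difference was 0.30 ± 0.07 in the unnumbered set and -0.03 ± 0.07 in the numbered set. NPC2 RNA differed by 0.04 ± 0.05 (95% interval -0.05 to 0.12).

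Of the cathepsins, CTSB, a cysteine protease, had footprints of 403 to 1041 CPM in large-subunit knockdowns (median 792), against 445 to 845 CPM in small-subunit knockdowns (median 581). CTSB was higher after large-subunit depletion by 0.31 ± 0.05 in Ribo-seq (adjusted p = 7.91e-06, edgeR) and by 0.20 ± 0.07 in RNA-seq (adjusted p = 0.0169, edgeR). PSAP, the precursor of the saposins that help enzymes degrade sphingolipids, had footprints of 1422 to 2759 CPM in large-subunit knockdowns (median 1949), against 1286 to 2052 CPM in small-subunit knockdowns (median 1640.2). Both genes overlapped between groups, with the top of each range in large-subunit knockdowns. These medians pool the title sets. Control means of CTSB footprints were 535 CPM in run 1 and 701 CPM in run 2, and those of PSAP 1596 and 1794 CPM. PSAP was higher by 0.25 ± 0.04 in Ribo-seq (adjusted p = 1.57e-06, edgeR) and by 0.20 ± 0.05 in RNA-seq (adjusted p = 0.00166, edgeR). Within the numbered set, neither gene was called in either assay. The RNA call of CTSB was also lost with library totals alone (0.14, adjusted p = 0.0797, edgeR), with the column run in place of the title set (0.12, adjusted p = 0.0957, edgeR) and with neither term (0.11, adjusted p = 0.170, edgeR), and that of PSAP with neither term (0.11, adjusted p = 0.0775, edgeR).

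CTSD, an aspartic protease, differed by 0.07 ± 0.06 in RNA-seq and by 0.12 ± 0.05 in Ribo-seq (95% interval 0.02 to 0.22, adjusted p = 0.0906, edgeR). Its values carry a doubt: the identifier ENSG00000250644 held 98.8% to 101% of the CTSD footprint count in every library, and 52.1% to 73.8% of its RNA count, so reads appear to be counted for both. LAMP1, a heavily glycosylated protein of the lysosomal membrane, differed by 0.10 ± 0.08 in RNA-seq (95% interval -0.07 to 0.26) and 0.05 ± 0.09 in Ribo-seq (95% interval -0.12 to 0.23).

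**Figure D2:**
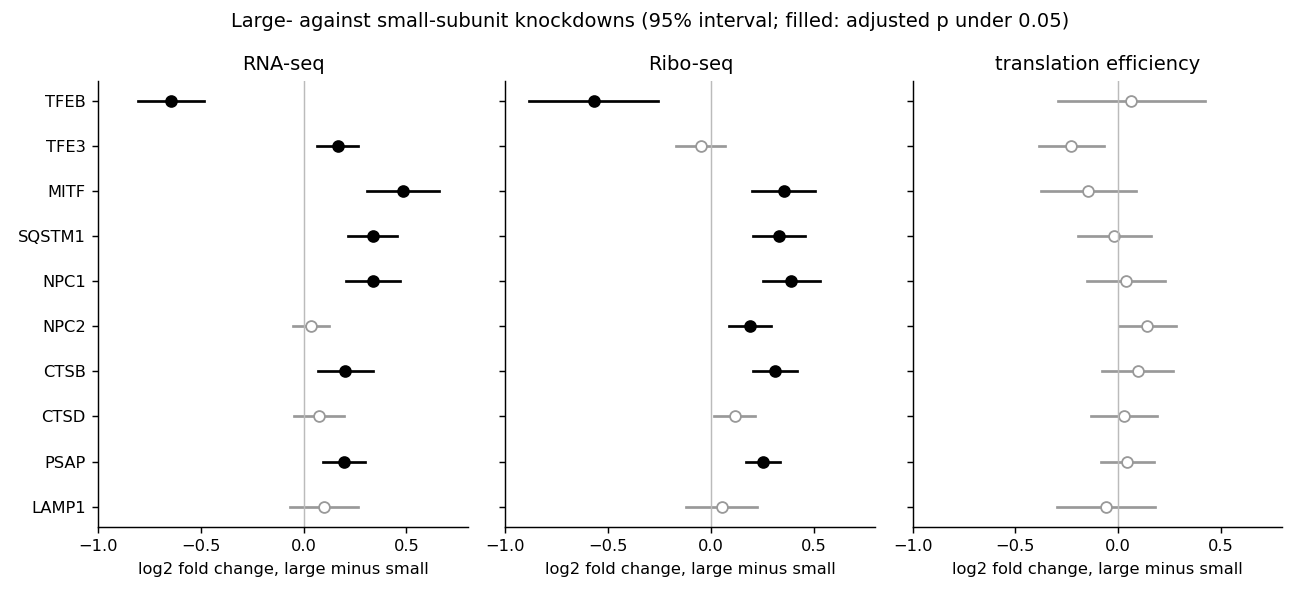
Log2 fold change of each of the 10 genes, large- minus small-subunit knockdowns, in RNA-seq, Ribo-seq and translation efficiency, with 95% intervals; filled symbols have an adjusted p under 0.05. TFEB lies left of 0 in RNA-seq (-0.65) and Ribo-seq (-0.57), and no gene is filled for translation efficiency.

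Translation efficiency, the ratio of footprints to RNA, was tested by an assay-by-group interaction term. None of the 10 genes was called for knockdowns against controls, where 0.353% of all genes were called higher and 0.024% lower, 0.377% in all; none had an unadjusted p under 0.05, and DESeq2 called 0. TFEB, the gene that moved in both assays, differed in translation efficiency by 0.01 ± 0.28 (95% interval -0.54 to 0.56), a wide interval that takes in changes in either direction. For large- against small-subunit knockdowns edgeR called none either, beside 0.897% of all genes higher and 2.63% lower, 3.53% in all, and DESeq2 called 0. At an unadjusted p under 0.05 stood 1 gene lower, TFE3, and 1 higher, NPC2.

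Because RNA and footprints came from the same lysates, the ratio was also tested per lysate with limma. TFE3 translation efficiency was then lower in large-subunit knockdowns, at -0.22 ± 0.06 on the log2 scale (adjusted p = 0.00291, limma), against -0.23 ± 0.08 in the interaction model (adjusted p = 0.0979, edgeR). NPC2 was higher by 0.13 ± 0.04 (adjusted p = 0.0166, limma), against 0.14 ± 0.07 in the interaction model (adjusted p = 0.352, edgeR). NPC1 translation efficiency was lower in knockdowns than in controls, at -0.19 ± 0.05 per lysate (adjusted p = 0.00852, limma), against -0.17 ± 0.15 in the interaction model. Both the pairing by lysate and the method differ between the 2 fits.

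The level of each gene in each target is described as the log2 ratio of its CPM to the control mean within its own title set, with a pseudocount of 0.5, averaged over a target's libraries and without a test. TFEB RNA was above control in 37 of 44 large-subunit and 30 of 31 small-subunit targets, with medians of 0.39 and 1.06. Its highest ratios were 1.37 for RPS6, 1.37 for RPSA and 1.31 for RPS25, and its lowest were -0.48 for RPLP2, -0.14 for RPS29 and -0.13 for RPL29. RPS6, RPSA and RPS29 are run 3 libraries set against run 2 controls, and TFEB RNA was at 3.99 and 4.31 CPM in the run 3 controls, against 2.196 to 4.35 CPM in those of run 2. Relative to controls of the same run, RPS6 and RPSA both came to 1.00, the highest ratios were 1.31 for RPS25, 1.25 for RPS15A and 1.24 for RPS21, and the lowest were -0.51 for RPS29, -0.48 for RPLP2 and -0.13 for RPL29. The medians were then 0.35 in large-subunit and 0.81 in small-subunit targets, with the same 37 of 44 and 30 of 31 above 0. MITF RNA was above control in 36 of 44 large-subunit and 17 of 31 small-subunit targets, highest for RPL34 at 1.12 and lowest for RPS23 at -0.90. Against controls of the same run MITF RNA was above control in 35 of 44 and 19 of 31, and RPL24 and RPL21 were highest, both at 1.33. SQSTM1 RNA was below control in 27 of 44 large-subunit and 27 of 31 small-subunit targets. NPC1 footprints were below control in 21 of 44 and 29 of 31. Within runs these counts were 26 of 44 and 30 of 31 for SQSTM1 RNA, and 20 of 44 and 27 of 31 for NPC1 footprints. Over the 75 targets the median NPC1 footprint ratio was -0.19, and 0.0050 against the mean of all 11 controls.

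Some targets recurred at the ends of the range. RPL21 was among the 3 highest RNA ratios for MITF, SQSTM1, NPC1 and CTSB, and RPL7 for TFE3, CTSD, PSAP and LAMP1. RPS27L was among the 3 lowest for SQSTM1 (-1.26), NPC1 (-0.91), CTSB (-0.49) and PSAP (-0.45), and RPS6 for SQSTM1 (-0.87), NPC1 (-0.69) and CTSB (-0.84). RPL21 was no longer among the 3 highest for SQSTM1 when controls of the same run were used (0.05), and RPS6, a run 3 library, was no longer among the 3 lowest for any of its genes, at -0.58 for SQSTM1, -0.35 for NPC1 and -0.30 for CTSB. CTSB RNA was at 274 and 279.6 CPM in the run 3 controls, against 295 to 495 CPM in those of run 2. The RPS27L values are from run 2, as are their controls. The RPS27L and RPS6 knockdowns each had 1 library, so these values have no replicate check.

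**Figure D3:**
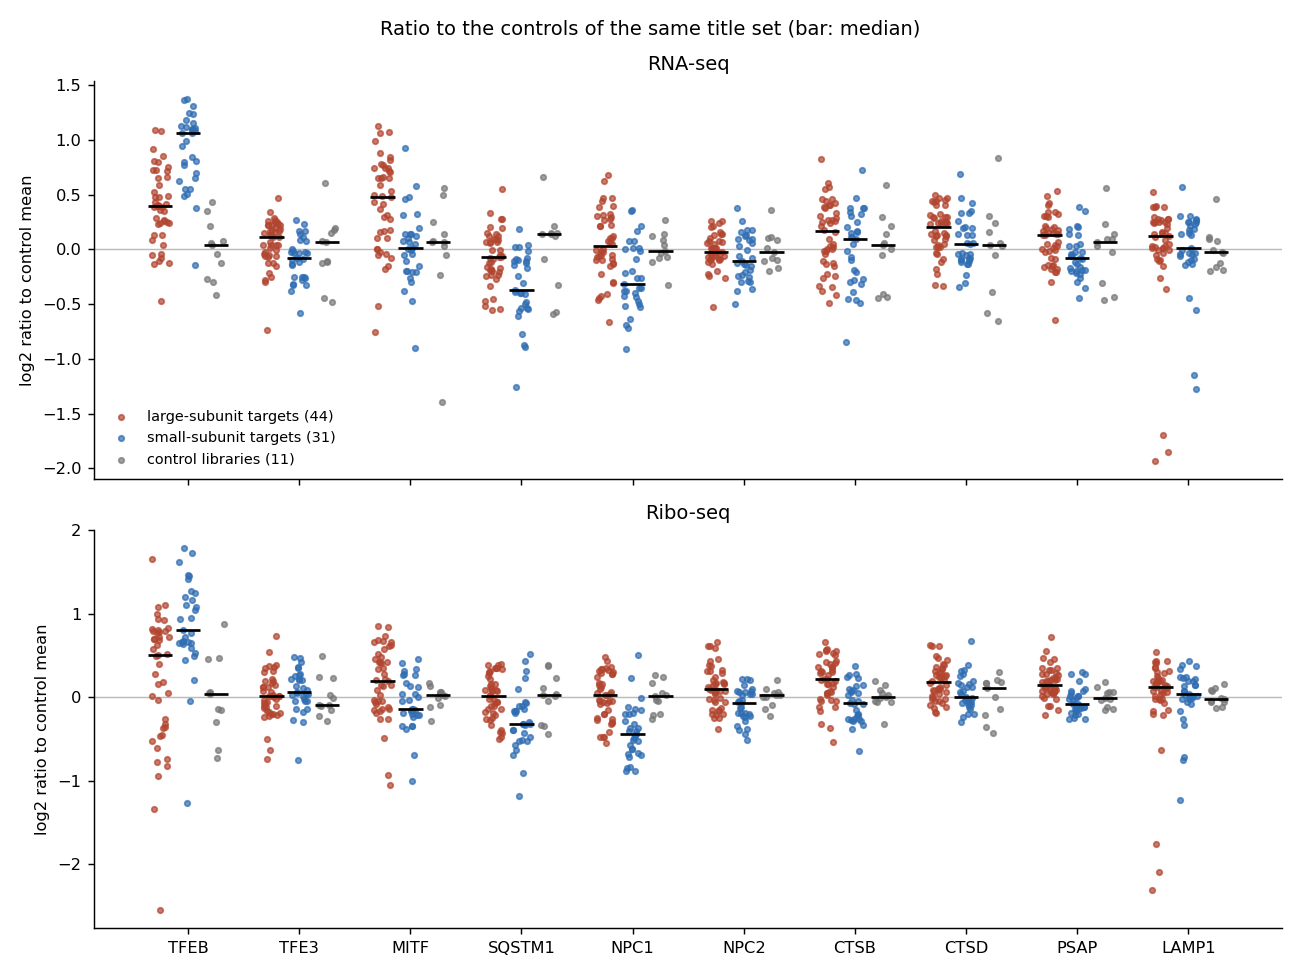
Log2 ratio to the control mean within each title set for each of the 10 genes, in RNA-seq (top) and Ribo-seq (bottom). Points are large-subunit targets (44), small-subunit targets (31) and control libraries (11), and bars are medians; the TFEB medians in RNA-seq are 0.39 for large- and 1.06 for small-subunit targets, and LAMP1 has a few targets far below the rest, down to -1.93.

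LAMP1 had a tail of low targets that its group medians do not show. LAMP1 RNA was at 29.5 CPM in the RPL10A knockdown, 31.3 CPM in the RPL36A knockdown and 34.9 CPM in the RPL13A knockdown, against 103 to 124 CPM in the 5 controls of the unnumbered set. Its footprints were at 48.9, 57.3 and 71.9 CPM in the same knockdowns, against 225 to 274 CPM in those controls. These RNA levels were 26.2%, 27.7% and 30.8% of the control mean and the footprint levels 20.1%, 23.5% and 29.5%, all well below the lowest control. RPS6 and RPS21 followed, with RNA at 41.3% and 45.2% of control. RPL36A and RPS6 are in run 3, and relative to the controls of that run LAMP1 RNA was at 32.5% and 48.5%. Each of these 5 targets had 1 library.

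Across the 75 targets, RNA and footprint levels, as log2 CPM centred within title set, ran together closely for LAMP1 (Pearson r = 0.95) and NPC1 (r = 0.94). The correlation was 0.88 for CTSB, 0.87 for MITF and 0.85 for SQSTM1, and between 0.49 for CTSD and 0.67 for PSAP for the others, TFEB among them with 0.61. These correlations describe 75 targets whose RNA and footprints share a lysate, and shifts with the run remain in them.

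**Figure D4:**
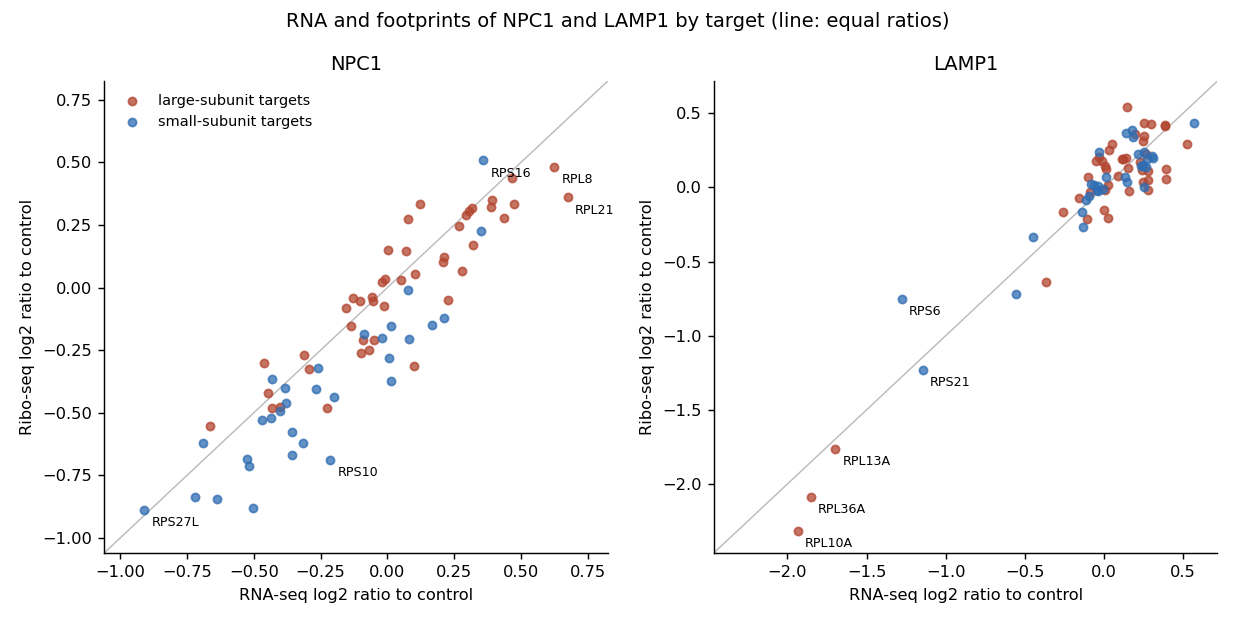
Ribo-seq against RNA-seq log2 ratio to control for NPC1 (left) and LAMP1 (right), 1 point per target, coloured by subunit, with the line of equal ratios. Points follow the line over 75 targets, and levels centred within title set had r = 0.94 and 0.95. The lowest LAMP1 point is RPL10A, at -1.93 in RNA-seq and -2.31 in Ribo-seq.

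For the 16 targets with 2 libraries, each gene was tested against the 6 controls of the numbered set, which all these comparisons share. Over 160 gene-by-target tests, 25 were called higher and 6 lower in RNA-seq (15.6% and 3.75%), where 11.5% and 14% of all gene-by-target tests were called. In Ribo-seq 32 were called higher and 10 lower (20.0% and 6.25%), beside 12.5% and 14.5% of all tests. For translation efficiency 1 was called higher and 3 lower, beside 1.14% and 2.25%. The few lower calls depended on the setting. The shares over all gene-by-target tests above are those of the main setting. Such shares were not taken at the other settings, so whether calls over all genes shift alike is not shown. With the replicate number as a block, 37 RNA-seq and 17 Ribo-seq tests were called lower. These counts were 38 and 17 when the column run was fitted, with all 11 controls as 1 group (the run term, chosen after the data were seen). The 2 settings are not separate checks. Titles of the 2 controls of run 3 carry no replicate number, so the block takes them out and leaves the 4 controls of run 1. With library totals alone, 40 RNA-seq tests were called higher. Without replicate 1 or without replicate 2 of every target, 1 call higher was left in RNA-seq, and 5 or 7 in Ribo-seq.

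TFEB accounted for 11 of the 25 higher calls in RNA-seq, all in small-subunit targets, from 0.52 ± 0.19 for RPS16 to 1.33 ± 0.17 for RPS15A (adjusted p = 0.0349 and 2.84e-06, edgeR). TFEB RNA was called in none of the 4 large-subunit targets. With the run term TFEB RNA was called higher in the same 11 targets. In Ribo-seq TFEB was called higher in 8 targets, RPL21 among them (0.82 ± 0.32, adjusted p = 0.0463, edgeR), of which 6 were kept with the run term and RPL21 was not (0.70 ± 0.34, adjusted p = 0.0912, edgeR). The largest footprint estimate was for RPS3 (1.53 ± 0.32, adjusted p = 0.000221, edgeR).

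MITF RNA was at 56.5 and 55.0 CPM in the RPL21 knockdowns and at 57.5 and 54.2 CPM in the RPL24 knockdowns, against 9.71 to 39.2 CPM in the 6 controls, so all 4 lay above every control. MITF RNA was higher by 0.96 ± 0.23 in each (adjusted p = 0.00188 for RPL21 and 0.00246 for RPL24, edgeR). RPS16 was another target with higher MITF RNA, at 0.83 ± 0.24 (adjusted p = 0.00980, edgeR). Its libraries are in runs 2 and 3, whose controls had 30.1 to 39.2 CPM of MITF RNA, against 9.71 to 31.3 CPM in run 1. With the run term the RPS16 difference was not called (0.44 ± 0.21, adjusted p = 0.146, edgeR), while those of RPL21 and RPL24 were. One control, 20_2, held the lowest MITF value, 9.71 CPM, and the other 5 were at 26.8 to 39.2 CPM.

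NPC1 footprints were at 234 and 259.8 CPM in the RPS10 knockdowns, against 343 to 477 CPM in the 6 controls. NPC1 was called lower in Ribo-seq in 7 of 16 targets, among them RPS10 (-0.70 ± 0.12, adjusted p = 6.44e-05, edgeR), RPS3, RPS15A, RPS15 and RPL24. It was called higher in RPL21 and RPS16. NPC1 footprints were at 343 to 389 CPM in the run 1 controls, 465 to 626 CPM in those of run 2 and 469.5 and 477 CPM in those of run 3. With the run term the RPS16 difference was not called (0.16 ± 0.08, adjusted p = 0.119, edgeR), nor was that of RPL24 (-0.19 ± 0.09, adjusted p = 0.0848, edgeR), and the other 6 lower calls were kept. In RNA-seq NPC1 was lower for RPS3 (-0.53 ± 0.12, adjusted p = 0.00149, edgeR) and higher for RPL21 and RPS16, and its translation efficiency was lower for RPS10 (-0.49 ± 0.12, adjusted p = 0.0360, limma), RPL24 (-0.46 ± 0.12, adjusted p = 0.0265, limma) and RPS12 (-0.35 ± 0.12, adjusted p = 0.0329, limma). The call for RPS12 was lost with the run term (-0.19 ± 0.07, adjusted p = 0.0698, limma).

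SQSTM1 was lower in RNA-seq for RPS16 (-0.60 ± 0.20, adjusted p = 0.0230, edgeR) and higher in Ribo-seq for RPS12 (0.40 ± 0.15, adjusted p = 0.0404, edgeR). Neither was called with the run term, at -0.12 ± 0.11 for RPS16 (adjusted p = 0.537, edgeR) and 0.23 ± 0.11 for RPS12 (adjusted p = 0.0950, edgeR). SQSTM1 RNA was at 2551 to 3657 CPM in the run 1 controls, against 1516 to 2101 CPM in those of runs 2 and 3, and with the run term it was called lower in 8 other targets. For RPS12 its translation efficiency was higher by 0.52 ± 0.15 (adjusted p = 0.0165, limma). CTSB was higher in RNA-seq for RPL15, RPL21 and RPS15, with the largest estimate for RPL21 (0.78 ± 0.17, adjusted p = 0.000630, edgeR). PSAP footprints were highest for RPL15 (0.72 ± 0.08, adjusted p = 2.62e-09, edgeR). Counts of calls with the run term, here and above, have no share over all genes beside them. With the run term PSAP RNA lost its 1 higher call and was called lower in 5 targets. PSAP translation efficiency was then called higher in 5 targets and its footprints in 2 more. CTSD RNA lost its 1 higher call and was called lower in 6 targets. NPC2 RNA was called lower in 4 more, NPC1 RNA in 3 more and SQSTM1 footprints in 7, while MITF RNA was called higher in 2 more. TFE3 was called in no target and no assay, with 3 RNA-seq, 2 Ribo-seq and 1 translation efficiency tests at an unadjusted p under 0.05, while with the run term it was called lower in 6 targets in RNA-seq and higher in 1 in Ribo-seq.

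**Figure D5:**
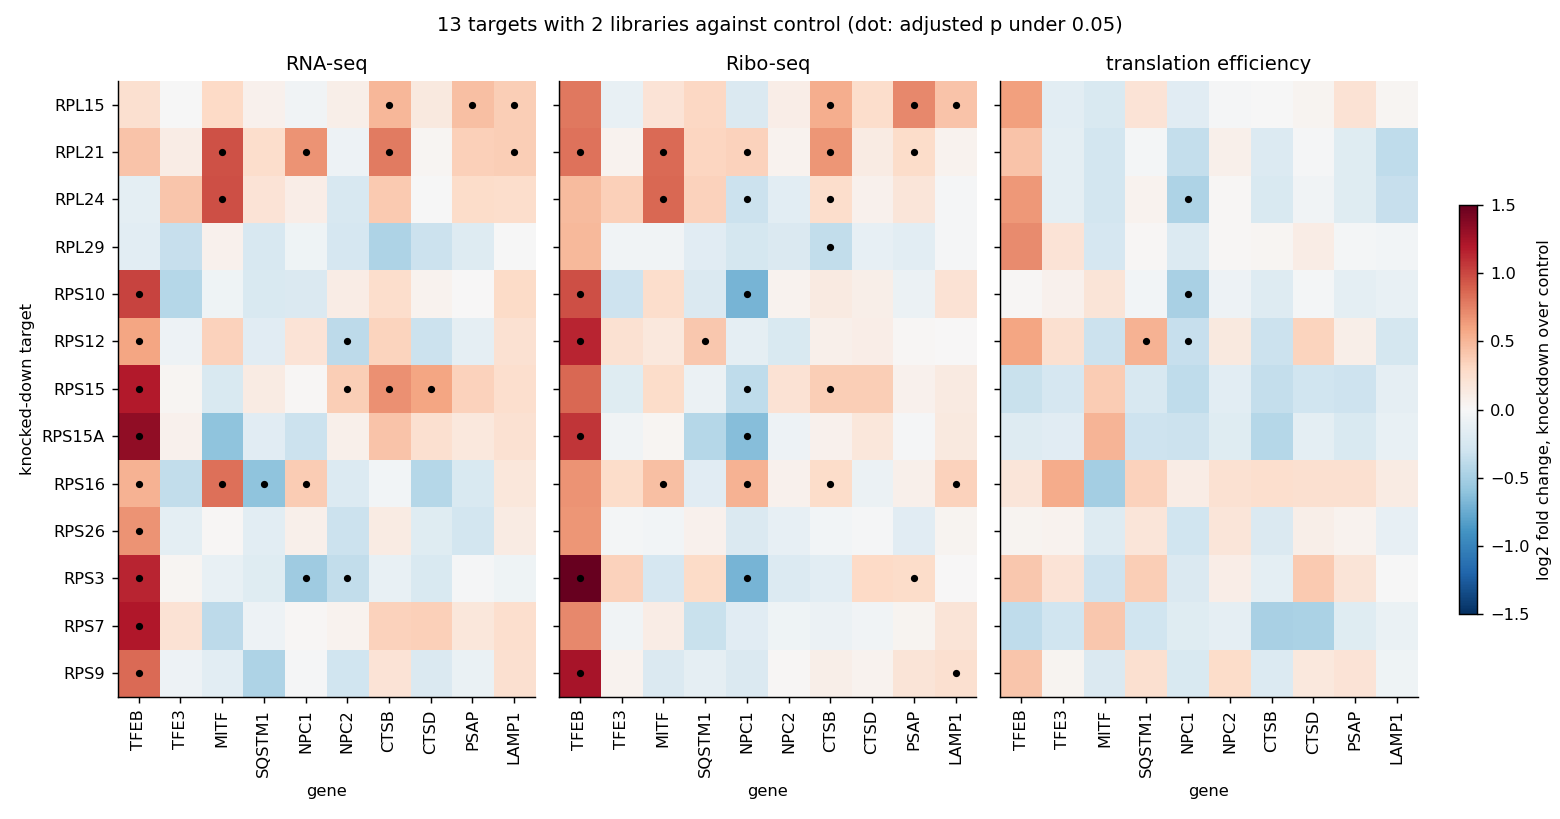
Log2 fold change of each of the 10 genes (columns) for 13 of the 16 targets with 2 libraries (rows) against the controls of the numbered title set, in RNA-seq, Ribo-seq and translation efficiency. Dots mark an adjusted p under 0.05; the TFEB column of RNA-seq has 9 dots, all in small-subunit targets.

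Set against each other over the 75 targets, the RNA levels of the 9 genes other than TFEB formed 36 pairs, of which 33 had a correlation above 0, with a median of 0.30 and the highest between CTSD and PSAP (r = 0.81). TFEB was below 0 with 7 of the other 9, down to -0.40 with SQSTM1. Within large-subunit targets alone 33 of the 36 pairs without TFEB were above 0, and within small-subunit targets 25, with the lowest at -0.43. Within large-subunit targets TFEB was below 0 with 4 of 9, and within small-subunit targets with 3 of 9. These values describe targets that share libraries and title sets. They were centred on the knockdown mean of each title set and not by run, so shifts with the run remain. Run 3 controls had lower RNA means than run 2 controls for SQSTM1, NPC1, NPC2, CTSB (277 and 408 CPM), CTSD, PSAP and LAMP1. They had higher means for TFEB (4.15 and 3.19 CPM), TFE3 and MITF. How far this shapes the correlations was not tested. Among the 9 genes, the median correlation with 10116 genes ran from -0.038 for NPC2 to 0.028 for MITF.

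By the same measure, the genes most like each of the 9 were sought among 10116 genes with a mean of at least 10 CPM, which TFEB does not reach. CTSD was most like ENSG00000250644 (r = 0.98), with which it appears to share reads, and then GRN (0.83) and FCGRT (0.82). PSAP was most like ENSG00000250644 (0.82) and then CTSD (0.81). CTSB was most like S100A6 (0.75), CD63 (0.71) and S100A4 (0.68), SQSTM1 most like CTSL (0.72), SH2D5 and SNHG29, and NPC1 most like ATG7 (0.69), KRT10-AS1 and SMOX. The leading genes were GM2A for NPC2 (0.65), FRMD6 for MITF (0.68), SLC35D1 for LAMP1 (0.62) and SBNO2 for TFE3 (0.61).

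The wider pathway was read from 7 lists of 135 genes in all, of which 133 were tested in RNA-seq and 132 in Ribo-seq. For knockdowns against controls, 22 genes were higher and 8 lower in RNA-seq, beside 13.4% and 17.2% of all genes, and 13 higher and 11 lower in Ribo-seq, beside 13.2% and 13.5%. The median log2 difference of the lists was 0.05 in RNA-seq, against -0.03 over all genes. GLA, the lysosomal alpha-galactosidase, fell by 0.62 ± 0.08 in RNA-seq (adjusted p = 6.92e-09, edgeR) and by 0.79 ± 0.09 in Ribo-seq (adjusted p = 1.62e-11, edgeR). MCOLN1, the calcium channel of the lysosomal membrane that helps activate TFEB, fell by 0.43 ± 0.08 and 0.50 ± 0.10.

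Among regulators of the factors, FNIP2, a partner of folliculin, rose by 0.44 ± 0.13 in RNA-seq. IGF2R, a receptor that sorts newly made enzymes to lysosomes, rose by 0.36 ± 0.10 in RNA-seq and 0.40 ± 0.09 in Ribo-seq, and CTNS, the cystine exporter, fell by 0.34 ± 0.09 and 0.42 ± 0.12. Of 16 V-ATPase subunits, which acidify the lysosome, 5 were higher and 2 lower in RNA-seq, beside 13.4% and 17.2% of all genes, and 2 and 2 in Ribo-seq (median -0.04), beside 13.2% and 13.5%, with ATP6V1G1 at 0.56 ± 0.11 and ATP6V0B at -0.35 ± 0.08 in RNA-seq. Of 22 autophagy genes 5 were higher and 2 lower in RNA-seq, and 5 and 1 in Ribo-seq. The smallest p among them in RNA-seq was that of WIPI2, at 0.42 ± 0.06, which binds phosphoinositides on forming autophagosomes.

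For large- against small-subunit knockdowns, 29 of 133 genes of the lists were higher and 5 lower in RNA-seq, where 15.2% and 16.4% of all genes were, and 24 and 8 of 132 in Ribo-seq, beside 10.9% and 11.2%; the 10 genes are among them. The median log2 difference was 0.07 in RNA-seq, against -0.01 over all genes. ATG7, an enzyme of autophagosome formation, was higher by 0.43 ± 0.06 in RNA-seq (adjusted p = 1.89e-09, edgeR) and by 0.26 ± 0.06 in Ribo-seq. WIPI1 was higher by 0.37 ± 0.08 and 0.52 ± 0.09. CTSS, a cysteine cathepsin, was higher by 0.40 ± 0.06 and 0.33 ± 0.06, while CTSV, another cathepsin, was lower, at -0.34 ± 0.08 in RNA-seq and -0.34 ± 0.10 in Ribo-seq. RRAGA and RRAGD, GTPases that recruit mTORC1 and the factors to lysosomes, were higher in RNA-seq by 0.14 ± 0.04 and 0.24 ± 0.09.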

How the data were processed

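Per the file headers, the authors deposited 2 tables of whole-number read counts per Ensembl gene, exonic for RNA-seq and coding for Ribo-seq, with no scaling or pooling. STAR 2.6.1 and the build GRCh38, with cutadapt 1.8.1 and bcl2fastq 2.20.0.422, are named per the submitters' processing notes. The annotation release, counting program and strand setting were not given in the sources used here, so genes that overlap, antisense genes such as KRT10-AS1 and near-identical copies are uncertain. Each column's name gave its sample; controls 21_1 and 21_2 show only their group.

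Tests covered genes that reached 1 CPM in at least 11 libraries, 15526 in RNA-seq, 12793 in Ribo-seq and 12480 in both, in R 4.3.3 with edgeR 4.0.16 (quasi-likelihood test, TMM scaling, title set as a term) and Benjamini-Hochberg adjustment over all genes tested, with a threshold of 0.05. Translation efficiency was the interaction of assay and group, and per lysate or per target limma 3.58.1 was run on log2 Ribo-seq CPM minus log2 RNA-seq CPM with a prior count of 2. By protocol both assays share a lysate; over 16 pairs of deviations from the target mean the median r was 0.23, and 11 of 16 were over 0.1. For the 16 targets, 1 fit gave each target a mean. Intervals are 1.96 SE. CPM values are TMM-scaled and not corrected for gene length, so levels are compared between libraries and not between genes. Simulated data with known changes were used to test the fits.

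No 2 libraries of a group agreed within sampling noise (lowest chi-square per degree of freedom 3.65 in RNA-seq and 3.69 in Ribo-seq). Floors at a count of 0 use 3 counts per library and cover counting error only. All 10 genes are named in every comparison; of each list, the 3 other genes with the smallest p past the threshold were eligible to be named, and of each gene the 3 highest and 3 lowest targets. The genes and lists were chosen with earlier results of these data known. Alternatives were other scalings, DESeq2 1.42.0, no filter, no title set term, each title set alone, 1 summed library per target, blocks, and each control left out, and, chosen after the data were seen, the column run as a term and, for target ratios, controls of the same run. A few targets and genes are not reported here by name, though they stay in every fit, count and range.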

Additional observations from a re-analysis of the deposited data

Results flagged for a closer look

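Among the 60 sets of control values tested for a stray library (10 genes, 3 measures, 2 title sets), 5 were marked, and chance alone marks about 1 set in 20. MITF RNA in control 20_2 was at 9.71 CPM, with the other 5 numbered controls at 26.8 to 39.2 CPM (gap over range 0.726). The translation efficiency of MITF was the highest of its set in control 20_2 (0.658) and in control 3 (0.825). In control 3 the translation efficiency of TFEB was the lowest of its set (0.834), and in control 20_2 that of CTSD was the lowest (0.737). Without control 20_2 or any other single control, no call on the 10 genes changed in the comparisons of all knockdowns with control or of large- with small-subunit knockdowns.

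Large- and small-subunit knockdowns differed beyond the spread of libraries, by the edgeR test of that difference, in 7 genes per assay. In RNA-seq the log2 differences, large minus small, were 0.48 for MITF, 0.34 for SQSTM1, 0.34 for NPC1, 0.20 for CTSB, 0.20 for PSAP, 0.16 for TFE3 and -0.65 for TFEB. In Ribo-seq they were 0.39 for NPC1, 0.35 for MITF, 0.33 for SQSTM1, 0.31 for CTSB, 0.25 for PSAP, 0.19 for NPC2 and -0.57 for TFEB.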

How the results depend on the processing

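Most alternatives kept direction and call. Exceptions for knockdowns against controls: SQSTM1 RNA was called lower (1 gene lower) with the replicate block, the number in the title (-0.26), and when the column run replaced the title set in the fit, chosen after the data were seen (-0.20). In Ribo-seq 0 genes were higher without the title set term (TFEB 0.69), in unnumbered titles alone (TFEB 0.59) and with the replicate block (TFEB 0.70). In both assays the replicate block takes out the 2 controls of run 3, whose titles carry no replicate number. The lysate block made 1 gene lower in translation efficiency, NPC1. Leaving out each control gave TFEB 0.71 to 0.81 in RNA-seq and 0.70 to 0.87 in Ribo-seq, with no call changed.

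For large- against small-subunit knockdowns, RNA-seq had 2 genes higher without the title set term, where TFE3 reversed (-0.057) and SQSTM1, CTSB and PSAP lost their calls, and 1 in numbered titles alone. Library totals alone lost TFE3 and CTSB (4 genes higher), and the run term lost CTSB (5 higher). In Ribo-seq 1 was higher and 0 lower in numbered titles alone, where NPC2 reversed (-0.033), and 0 lower in unnumbered titles alone. In translation efficiency 2 were higher without the title set term (NPC2 0.28, CTSB 0.29), and 1 higher and 1 lower with the lysate block. The cause of these shifts was not tested, but fewer libraries enter each title set alone.

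Over the 16 targets, leaving out replicate 1 or 2 leaves 1 library per target, assumed to vary like the other groups. That gave 1 call higher and 0 lower in RNA-seq, 5 to 7 higher and 2 to 3 lower in Ribo-seq, and 0 and 0 in translation efficiency. Shares over all gene-by-target tests were taken at the main setting only, so the counts here have none beside them. Library totals alone gave 40 higher in RNA-seq. All 11 controls as 1 group gave 22 lower in Ribo-seq and 7 lower in translation efficiency. The run term, chosen after the data were seen, gave 38 lower in RNA-seq, 17 lower in Ribo-seq and 7 higher in translation efficiency. The replicate block gave 37 lower in RNA-seq, 17 lower in Ribo-seq and 12 higher in translation efficiency. It is not a check separate from the run term, as it leaves only the 4 controls of run 1. In RNA-seq the numbers did not pair libraries: 50 of 120 same-numbered pairs correlated over 0.1 (median r -0.063), and 1 of 16 targets was closer to its own number. The assays differed here, as in Ribo-seq 59 of 120 pairs did (median r 0.098), and 13 of 16 targets were closer to their own number. Against the mean of all 11 controls, the median Ribo-seq ratio was 0.0050 for NPC1 and 0.17 for NPC2. With the controls of each title set it was -0.19 and 0.038. Depth limits TFEB most, with 0 to 333 footprint counts per library.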

Other observations

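MAN2B1, a lysosomal mannosidase, and BECN1, a subunit of the lipid kinase complex that starts autophagosome formation, were the 2 genes of the 7 pathway lists called in translation efficiency between large- and small-subunit knockdowns. That made 0 higher and 2 lower of 132 genes, beside 0.897% higher and 2.63% lower of all genes. MAN2B1 RNA was higher in large-subunit knockdowns by 0.42 ± 0.06 on the log2 scale (adjusted p = 8.84e-09, edgeR), while its footprints were lower, at -0.19 ± 0.06 (adjusted p = 0.0167, edgeR), and its translation efficiency was lower, at -0.62 ± 0.09 (adjusted p = 1.70e-09, edgeR). BECN1 was likewise called higher in RNA-seq and lower in Ribo-seq, and its translation efficiency differed by -0.41 ± 0.10 (adjusted p = 0.00188, edgeR). In knockdowns against controls BECN1 RNA rose by 0.46 ± 0.09 (adjusted p = 5.51e-05, edgeR). WIPI2 rose by 0.58 ± 0.09 in Ribo-seq in the same comparison and was lower in large- than in small-subunit knockdowns, at -0.22 ± 0.06 (adjusted p = 0.00366, edgeR).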
